A study of Mus musculus with 8 samples.

Results

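Adipogenic transcription factors, encoded by 10 genes, were followed in inguinal white adipose tissue (ING WAT) of C57BL/6j mice at postnatal day 21 (PN21) and postnatal day 98 (PN98). They were *Pparg*, *Ppara*, *Cebpa*, *Cebpb*, *Cebpd*, *Rxra*, *Nr1h3*, *Klf15*, *Zfp423* and *Ebf1*, taken by their symbols. These 10 genes were among 38440 genes in the table, and they held 41 of its 91944 usable transcripts. Poly(A)+ RNA had been sequenced from 4 mice per age, named m1, m49, m138 and m145 for the younger age and m35, m106, m114 and m125 for the older, with 1 library of whole tissue for each mouse. All 8 mice carried the same background with no allele or agent given in the labels, so the ages were the contrast. The mice were raised on a purified diet until day 42, and the study then fed either a maintenance diet or a Western-style diet. Which of these diets each PN98 mouse of the libraries ate was not given in the labels, and neither was sex. Age cannot be told apart here from weaning or from the change of diet. The Y-linked gene *Ddx3y* was at 18.1 to 22.1 FPKM at PN21 and 19.9 to 25.9 FPKM at PN98. All 8 mice thus expressed a Y-linked gene, as males do. *Xist* was at 0.247 to 0.832 FPKM at PN21 and at most 0.00704 FPKM at PN98.

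PPARγ, encoded by *Pparg*, is the nuclear receptor without which fat cells do not form, and it binds DNA as a partner of the retinoid X receptor. In the textbook sequence, C/EBPβ and C/EBPδ appear early after an adipogenic stimulus and precede PPARγ and C/EBPα, which then keep each other and the genes of lipid storage switched on. ZFP423 and EBF1 mark committed precursors of fat cells, KLF15 and the liver X receptor α (*Nr1h3*) act on lipid and glucose genes of the mature cell, and PPARα drives fatty acid oxidation.

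None of the 10 factors passed the test for a change with age at the level of the gene (limma, adjusted p under 0.05, 0 of 10), against a background of 5.26% of the 16126 genes tested. At an unadjusted p under 0.05 there were 2 members, *Rxra* and *Zfp423*, both higher at PN98, where 27.2% of all genes reached that level. The values are FPKM (fragments per kilobase of transcript, normalised to the mapped fragments of the library) summed over the transcripts of a gene, and fold changes are differences of log2(FPKM + 1), PN98 minus PN21. Of the 10 log2 fold changes 6 were positive and 4 were negative. Their median was 0.14, whereas the median over all genes tested was −0.21, so a gene with no change relative to the bulk of the transcriptome sat below 0. Scaling the mice to each other moved the median of all genes to −0.03 (median of ratios) or 0.01 (equal sums over nuclear genes), and none of the 10 factors passed under either.

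**Figure D1:**
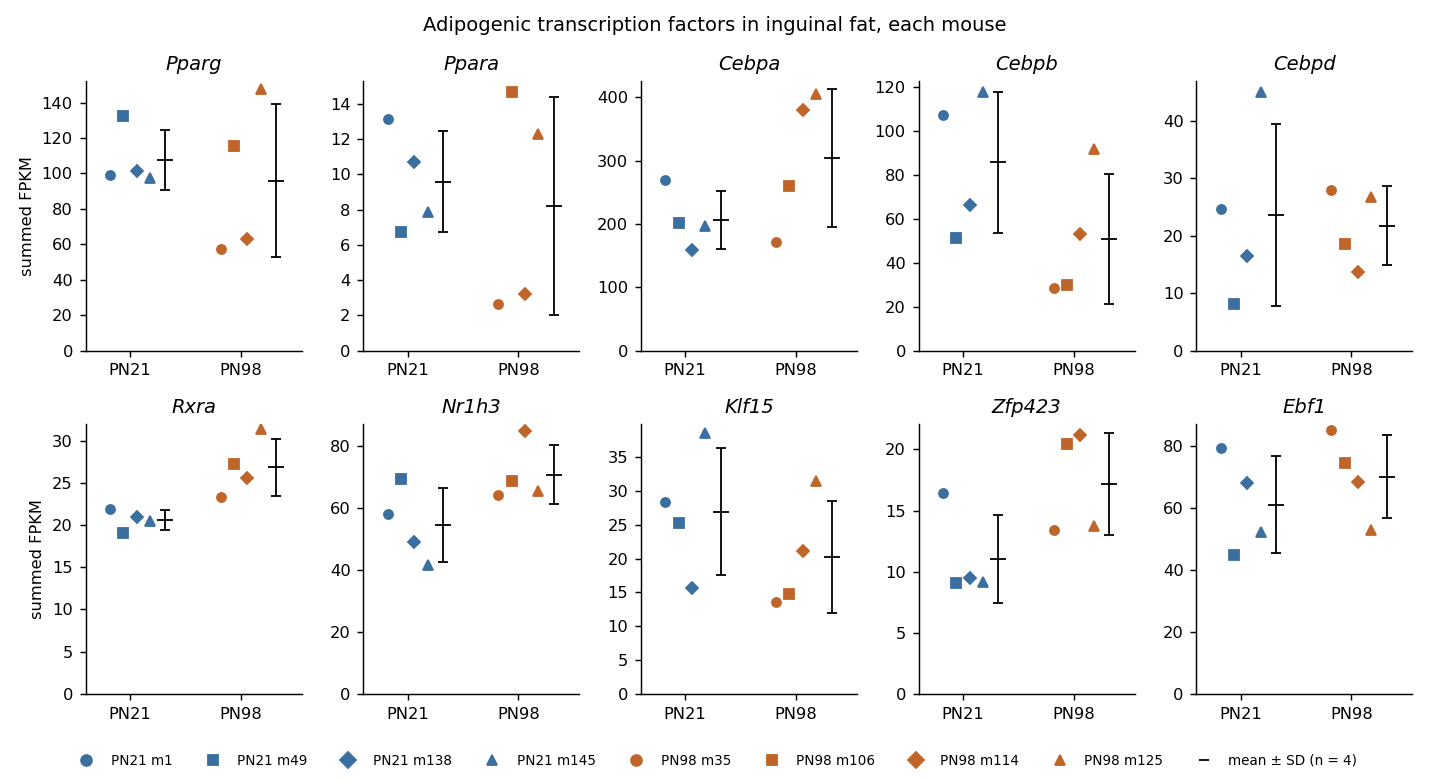
Summed FPKM (linear axis from 0) of each of the 10 factors in each of the 4 PN21 mice (blue) and 4 PN98 mice (orange), with mean ± SD beside the points and the same symbol for the same mouse in every panel. The ages overlapped for every factor except *Rxra*, and at PN98 mice m35 and m114 lay far below m106 and m125 for *Pparg* and *Ppara*.

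*Pparg* lies on chromosome 6 of GRCm38 from 115360951 to 115490399 on the plus strand. It measured 99.0, 133, 101 and 97.5 FPKM at PN21 (in the order m1, m49, m138, m145) and 57.5, 115.5, 63.0 and 147 FPKM at PN98 (in the order m35, m106, m114, m125), and all values below follow these orders. The PN21 mice lay close together apart from the higher m49, whereas at PN98 both the lowest and the highest level of all 8 mice occurred. The means were 108 ± 16.7 FPKM (SD, n = 4) at PN21 and 95.9 ± 43.2 FPKM (n = 4) at PN98. The log2 fold change was −0.26 ± 0.32 (SE, as for every fold change here), with a 95% interval of −0.99 to 0.46 (adjusted p = 0.597). The interval thus left room for a fall or a rise, and under the nuclear scaling the estimate was 0.00, with the opposite sign.

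Both annotated *Pparg* transcripts were detected in all 8 mice, and the transcript of the longer protein held most of the summed FPKM in every mouse. ENSMUST00000000450 starts inside the gene at position 115422066 and encodes PPARγ2, the form known for its restriction to fat, whereas ENSMUST00000171644 starts at 115360951 and encodes PPARγ1. The coding sequence held by the PPARγ2 transcript alone spans 90 bases, or 30 codons, in 2 exon blocks on chromosome 6 (115422111 to 115422192 and 115439840 to 115439847). It is shown, with its start codon in capitals, because its first block and the untranslated bases of the first exons separate the transcripts. The second block is also exonic in the PPARγ1 transcript, where it is untranslated.
PPARγ2-only coding stretch: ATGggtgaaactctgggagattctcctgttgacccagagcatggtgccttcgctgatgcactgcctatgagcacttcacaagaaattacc

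The 250 bases just before the PPARγ2 start (RefSeq, GRCm38.p6, chr6:115421816-115422065, plus strand) are shown because the share of the gene's output from this start was measured. Capitals mark matches on either strand to TTGCNNAA, the core of a C/EBP site, to AGGTCA, the hexamer of nuclear receptors, to CCCNNGGG, the core of an EBF site, or to the GC box GGGCGG.
*Pparg*, PPARγ2 start: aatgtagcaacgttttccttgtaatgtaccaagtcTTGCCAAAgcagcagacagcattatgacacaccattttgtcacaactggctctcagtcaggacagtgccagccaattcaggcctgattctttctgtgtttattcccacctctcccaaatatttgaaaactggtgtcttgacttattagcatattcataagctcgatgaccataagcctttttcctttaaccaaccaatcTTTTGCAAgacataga
The window held 2 matches to TTGCNNAA, at 215 and 16 bases before the start, and none to the other motifs. Over the 250 upstream bases of 32851 RefSeq promoters, 9.56% held TTGCNNAA, 14% AGGTCA, 11.8% CCCNNGGG and 32.7% GGGCGG. RefSeq windows were found for 9 of the 10 factors, and no other of these 15 windows except an upstream *Zfp423* start held TTGCNNAA. A match is a description of letters and not a measured binding site.

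The PPARγ2 transcript measured 81.5, 107, 79.2 and 88.7 FPKM at PN21 and 38.8, 89.7, 50.2 and 119 FPKM at PN98. It therefore followed the gene total, with m35 and m114 low at PN98. Of its 1767 exonic bases 127 are not in the other transcript. The PPARγ1 transcript measured 17.5, 25.6, 22.0 and 8.76 FPKM at PN21 and 18.7, 25.8, 12.8 and 28.3 FPKM at PN98. PPARγ2 held 82.3, 80.7, 78.3 and 91.0% of the *Pparg* total at PN21 and 67.5, 77.6, 79.6 and 80.8% at PN98. The shares overlapped between the ages, with the highest in m145 and the lowest in m35. The difference of −6.69 percentage points was not significant (exact permutation test, two-sided, with 70 ways to split the mice, p = 0.143). Neither transcript passed at the transcript level (limma, log2 fold changes −0.39 ± 0.37 and 0.26 ± 0.41, adjusted p = 0.526 and 0.707).

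*Rxra* encodes the retinoid X receptor α, the obligate partner of PPARγ, PPARα and the liver X receptors. It lies on chromosome 2 from 27676440 to 27762957 on the plus strand. *Rxra* measured 21.8, 19.0, 21.0 and 20.5 FPKM at PN21 and 23.3, 27.2, 25.5 and 31.3 FPKM at PN98. Every PN98 mouse lay above every PN21 mouse, which was the case for 6.05% of all genes tested. The PN21 mice had the narrowest log2 spread of the 10 factors (SD 0.08). The means were 20.6 ± 1.2 and 26.8 ± 3.38 FPKM (n = 4 each), a log2 fold change of 0.36 ± 0.14 with a 95% interval of 0.03 to 0.69 (limma, adjusted p = 0.157). With sample weights in limma the adjusted p was 0.0401, but that fit called 28.8% of all genes. Its main transcript, ENSMUST00000077257, held at least 97.9% of the gene in every mouse, and its log2 fold change was 0.39 ± 0.16 (adjusted p = 0.215).

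*Ppara* lies on chromosome 15 from 85734983 to 85802819 and had the lowest mean of the 10 factors when all transcripts were summed. It measured 13.1, 6.73, 10.7 and 7.84 FPKM at PN21 and 2.64, 14.7, 3.19 and 12.3 FPKM at PN98. At PN98 the mice formed 2 pairs, m35 and m114 below every PN21 mouse and m106 and m125 close to or above the highest PN21 mouse. The log2 fold change was −0.46 ± 0.51, with a 95% interval of −1.63 to 0.72 (adjusted p = 0.569), the widest interval of the 10. The same pairs of PN98 mice stood low and high for *Pparg*. At PN21 the highest *Pparg* mouse, m49, was instead the lowest for *Ppara*.

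At PN98 the summed brown fat markers were also lower in m35 and m114 than in m106 and m125. *Ucp1*, the uncoupling protein of thermogenic fat, measured 544, 650, 586 and 559 FPKM at PN21 and 7.41, 278, 56.3 and 356 FPKM at PN98. The summed level of all 7 brown markers was 3154 to 6546 FPKM at PN21 and 384, 2543, 1051 and 4375 FPKM in the same 4 PN98 mice. None of the 7 was at 0 in any mouse and none passed the test. Of their estimates 1 was positive, and the median log2 fold change was −0.99. For *Ucp1* it was −2.81 ± 1.07 (limma, adjusted p = 0.149). Between the pairs of PN98 mice *Lep*, which encodes leptin, stood the other way. It was at 396 and 569 FPKM in m35 and m114 and 162 and 102 FPKM in m106 and m125. The 10 adipocyte markers, *Lep* among them, did not do so as a sum. They summed to 39214 and 46900 FPKM in m35 and m114 and 46964 and 59400 FPKM in m106 and m125. The part of these differences in the spread of *Pparg* and *Ppara* was not tested. In whole tissue, fewer cells of a type and less RNA per cell cannot be told apart.

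The coding share of *Ppara* varied between libraries. The transcript with the highest mean, ENSMUST00000109422, measured 7.42, 4.59, 8.21 and 5.24 FPKM at PN21 and 0.522, 8.71, 1.58 and 9.03 FPKM at PN98, so the 2 pairs at PN98 stood farther apart than in the gene total. Its log2 fold change was −1.13 ± 0.93 (adjusted p = 0.475). Protein-coding transcripts together held 36.1 to 94.4% of the summed FPKM of the gene. At PN21 they summed to 4.63 to 10.1 FPKM, where the coding transcripts of *Zfp423* summed to 3.99 to 5.83 FPKM.

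*Cebpa* had the highest level of the 10 factors at both ages. The gene has 1 exon and 1 transcript here, on chromosome 7 from 35119293 to 35121928. It measured 269, 202, 158 and 197 FPKM at PN21 and 172, 261, 380 and 405 FPKM at PN98. The PN98 mice m114 and m125 exceeded every PN21 mouse, and m35 lay inside the PN21 range. The means were 207 ± 46.1 and 304 ± 108 FPKM, a log2 fold change of 0.50 ± 0.30 with a 95% interval of −0.19 to 1.2 (adjusted p = 0.300).

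*Cebpb*, on chromosome 2 from 167688915 to 167690418, measured 107, 51.4, 66.1 and 118 FPKM at PN21 and 28.5, 30.0, 53.0 and 91.8 FPKM at PN98. Mice m35 and m106 lay below every PN21 mouse, and m114 and m125 lay within the PN21 range. The log2 fold change was −0.83 ± 0.43, the largest in size of the 10 factors, with a 95% interval of −1.8 to 0.15 (adjusted p = 0.238). *Cebpd*, on chromosome 16 from 15887286 to 15891031, had the widest log2 spread at PN21 (SD 0.98). It measured 24.7, 8.14, 16.5 and 45.1 FPKM at PN21 and 28.0, 18.6, 13.7 and 26.8 FPKM at PN98. All 4 PN98 values fell inside the PN21 range, and the log2 fold change was 0.07 ± 0.48 with a 95% interval of −1.02 to 1.17 (adjusted p = 0.936).

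Of the 4 ratios tested within a mouse, only *Cebpa* to *Cebpb* did not overlap between the ages. How often the ratios of other gene pairs separate the ages was not computed. The *Cebpa* to *Cebpb* ratio moves with the scaling of a library only through the 1 FPKM added to each level. On the log2 scale it was 1.32, 1.95, 1.25 and 0.74 at PN21 and 2.55, 3.08, 2.82 and 2.13 at PN98. Every PN98 mouse lay above every PN21 mouse, although neither gene separated the ages when taken alone. The means were 1.31 ± 0.50 and 2.64 ± 0.40 (SD, n = 4), a difference of 1.33 (exact permutation test, two-sided, p = 0.0286). That p is the smallest that 70 splits can give, and adjusted over the 4 ratios tested it was 0.114, so the ratio did not pass after correction. A ratio that is alone at the smallest p cannot pass this correction with 4 mice an age, so the adjusted p cannot decide the question.

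The 250 bases before each start are shown for this pair of genes, with the same motifs in capitals. The *Cebpa* window (chr7:35119043-35119292, plus strand) held no match, and the *Cebpb* window (chr2:167688665-167688914, plus strand) held 5 matches to GGGCGG and 1 to CCCNNGGG.
*Cebpa*: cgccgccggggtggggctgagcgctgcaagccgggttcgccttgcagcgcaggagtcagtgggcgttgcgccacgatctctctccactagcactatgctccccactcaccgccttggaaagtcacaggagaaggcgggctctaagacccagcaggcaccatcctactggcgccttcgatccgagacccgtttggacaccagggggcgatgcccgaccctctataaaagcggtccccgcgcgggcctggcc
*Cebpb*: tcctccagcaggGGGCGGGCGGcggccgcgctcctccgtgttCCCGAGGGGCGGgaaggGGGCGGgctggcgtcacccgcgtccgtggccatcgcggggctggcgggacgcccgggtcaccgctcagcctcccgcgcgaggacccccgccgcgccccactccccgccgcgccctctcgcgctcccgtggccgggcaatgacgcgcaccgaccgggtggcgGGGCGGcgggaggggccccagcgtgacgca

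**Figure D2:**
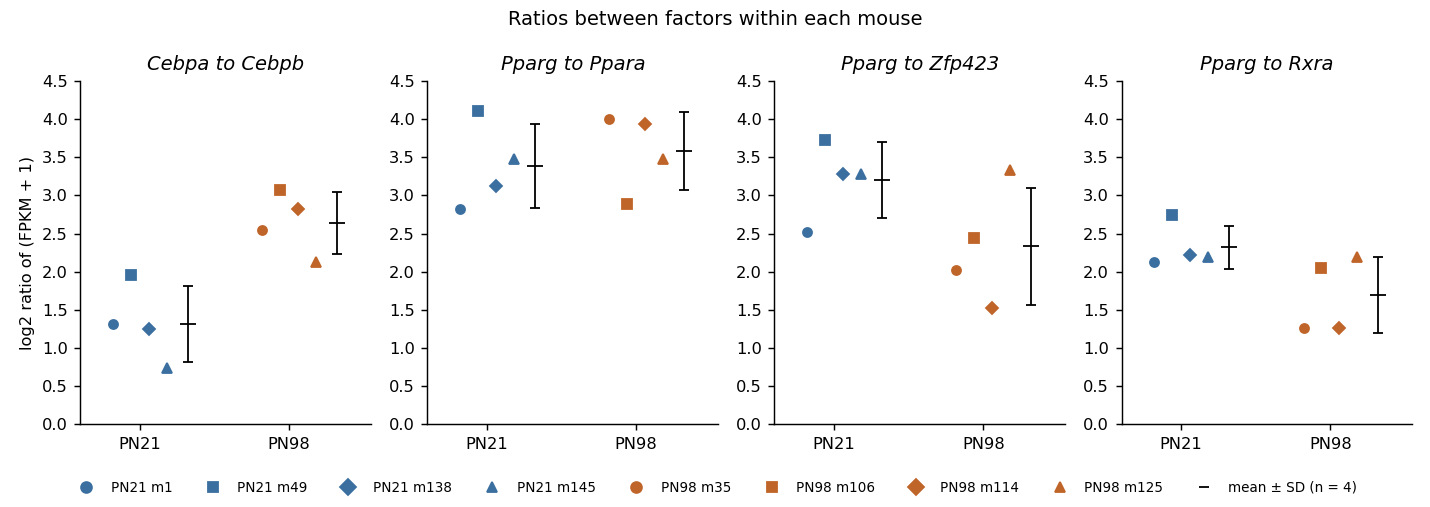
Log2 ratio of (FPKM + 1) between pairs of factors within each mouse, 4 PN21 mice (blue) and 4 PN98 mice (orange), with mean ± SD. The *Cebpa* to *Cebpb* ratio was 0.74 to 1.95 at PN21 and 2.13 to 3.08 at PN98, and the other ratios overlapped between the ages.

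The remaining ratios set *Pparg* against other factors and none passed. *Pparg* to *Rxra* averaged 2.32 ± 0.28 at PN21 and 1.70 ± 0.50 at PN98, a difference of −0.63 (exact permutation p = 0.0857, adjusted 0.152). *Pparg* to *Zfp423* averaged 3.20 ± 0.50 and 2.33 ± 0.77, a difference of −0.87 (exact permutation p = 0.114, adjusted 0.152). *Pparg* to *Ppara* averaged 3.39 ± 0.55 and 3.58 ± 0.51, a difference of 0.19 (exact permutation p = 0.657, adjusted 0.657). For the first of these, m35 and m114 were at 1.27 each and m106 and m125 were at 2.04 and 2.20, the latter inside the PN21 range of 2.13 to 2.74.

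*Nr1h3*, on chromosome 2 from 91184061 to 91202834 on the minus strand, encodes the liver X receptor α, a sensor of oxysterols. It measured 57.9, 69.2, 48.8 and 41.5 FPKM at PN21 and 63.9, 68.5, 84.7 and 65.5 FPKM at PN98. The highest mouse was m114, and PN21 mouse m49 lay above 3 of the 4 PN98 mice. The log2 fold change was 0.39 ± 0.19, with a 95% interval of −0.06 to 0.83 (adjusted p = 0.226). Its 8 transcripts were divided differently from mouse to mouse. ENSMUST00000002177 held 68.7% of the gene in m145 and 16.1 to 34.6% in the other mice, while ENSMUST00000136234, a processed transcript, was at 0 in m145 and at 16.2 to 33.4% elsewhere. The transcript with the highest mean and the lowest p, ENSMUST00000111354, had a log2 fold change of 0.81 ± 0.41 (adjusted p = 0.280). The latter has 35 exonic bases that no other listed *Nr1h3* transcript holds, and ENSMUST00000002177 has 0.

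*Klf15*, on chromosome 6 from 90462576 to 90475238, encodes a Krüppel-like factor of lipid and glucose metabolism. The gene total was 28.4, 25.2, 15.7 and 38.6 FPKM at PN21 and 13.6, 14.7, 21.1 and 31.5 FPKM at PN98. The ages overlapped, with m35 and m106 below every PN21 mouse. The log2 fold change was −0.41 ± 0.34, with a 95% interval of −1.18 to 0.37 (adjusted p = 0.451). The 2 transcripts behaved differently. ENSMUST00000113530, which starts at the internal position 90465304, measured 5.01, 4.85, 3.56 and 0.00317 FPKM at PN21 and 0.00134 to 0.00212 FPKM at PN98. Thus m1, m49 and m138 held 17.6, 19.2 and 22.7% of *Klf15* in this transcript, and m145 and all 4 PN98 mice held at most 0.0156%.

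In the test of transcripts ENSMUST00000113530 had the lowest p of the 19 member transcripts tested, with a log2 fold change of −8.71 ± 2.36 (limma, adjusted p = 0.121). On log2(FPKM + 1) it was −1.83 ± 0.53 (adjusted p = 0.101). Without m145, the PN21 mouse with a value near those of PN98, the adjusted p of limma was 4.47e-05. Without any other mouse it was 0.0924 to 0.261. The values at PN98 are close to 0, so the size of this fold rests on levels that the software split from a shared total: 154 of the 2374 exonic bases of this transcript are in no other *Klf15* transcript. The alternative, ENSMUST00000032174, measured 12.1 to 38.6 FPKM at PN21 and 13.6 to 31.5 FPKM at PN98 (log2 fold change −0.19 ± 0.42, adjusted p = 0.792).

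*Zfp423*, on chromosome 8 from 87661810 to 87959595 on the minus strand, encodes a zinc finger protein of committed precursors. It measured 16.4, 9.09, 9.52 and 9.13 FPKM at PN21 and 13.4, 20.4, 21.2 and 13.7 FPKM at PN98. The 3 PN21 mice other than m1 lay below every PN98 mouse, and m1 lay between the PN98 mice. The log2 fold change was 0.61 ± 0.25, with a 95% interval of 0.04 to 1.2 (limma, adjusted p = 0.166). A short processed transcript, ENSMUST00000173092, held 43.0 to 63.4% of the summed FPKM. Taken over protein-coding transcripts only, an alternative chosen after the values were seen, *Zfp423* measured 5.83, 3.99, 4.93 and 4.62 FPKM at PN21 and 6.65, 8.26, 8.04 and 5.42 FPKM at PN98. There the log2 fold change was 0.46 ± 0.17 (adjusted p = 0.123), with m125 below m1. The long coding transcript ENSMUST00000165770 had a log2 fold change of 0.46 ± 0.19 (limma, adjusted p = 0.226).

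*Ebf1*, on chromosome 11 from 44617317 to 45008091, encodes early B cell factor 1, a factor of fat cell precursors that B lymphocytes also require. It measured 79.2, 44.7, 68.0 and 52.0 FPKM at PN21 and 84.9, 74.3, 68.2 and 52.7 FPKM at PN98. The ages overlapped over most of their range, and the log2 fold change was 0.21 ± 0.23 with a 95% interval of −0.32 to 0.74 (adjusted p = 0.562). The processed transcript ENSMUST00000138452, of 349 exonic bases, held 11.4% of the gene in m145 and 34.5 to 59.1% in the other mice. The coding transcripts summed to 28.6, 23.7, 22.6 and 41.9 FPKM at PN21 and 38.6, 26.8, 33.6 and 22.4 FPKM at PN98 (log2 fold change 0.07 ± 0.24, adjusted p = 0.877). The summed level of 14 lymphocyte markers was 727, 931, 1622 and 1177 FPKM at PN21 and 1544, 296, 391 and 37.7 FPKM at PN98. At PN98 *Ebf1* and that sum were both highest in m35 and lowest in m125, whereas at PN21 m1 had the highest *Ebf1* and the lowest sum. Its part in the *Ebf1* level was not tested.

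**Figure D3:**
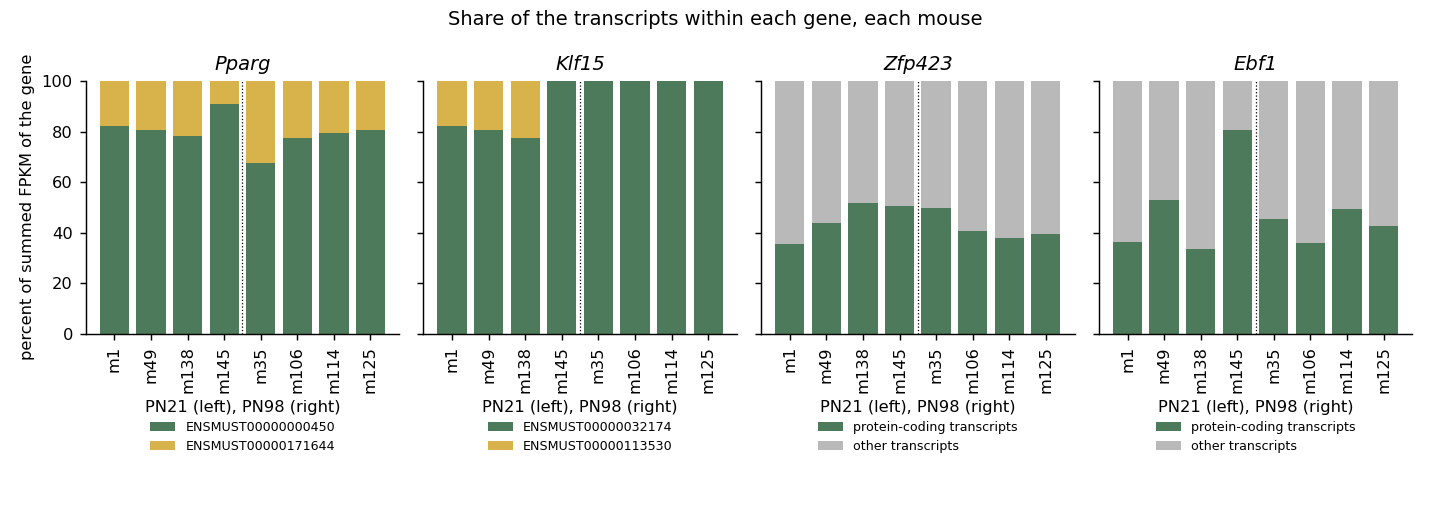
Percent of the summed FPKM of *Pparg*, *Klf15*, *Zfp423* and *Ebf1* held by their transcripts in each mouse (stacked bars from 0 to 100%, PN21 left and PN98 right of the dotted line). ENSMUST00000113530 of *Klf15* held 17.6 to 22.7% in m1, m49 and m138 and almost nothing elsewhere, and m145 differed from the other PN21 mice for *Pparg*, *Klf15* and *Ebf1*.

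Of the 41 member transcripts 19 entered the test, which required expression in every mouse and a mean over 2 FPKM at PN21 or at PN98. No member transcript passed (limma, adjusted p under 0.05, 0 of 19), where 1.36% of the 23170 transcripts tested did. At an unadjusted p under 0.05 there were 3, of *Rxra*, *Klf15* and *Zfp423*, against 21.8% of all transcripts.

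**Figure D4:**
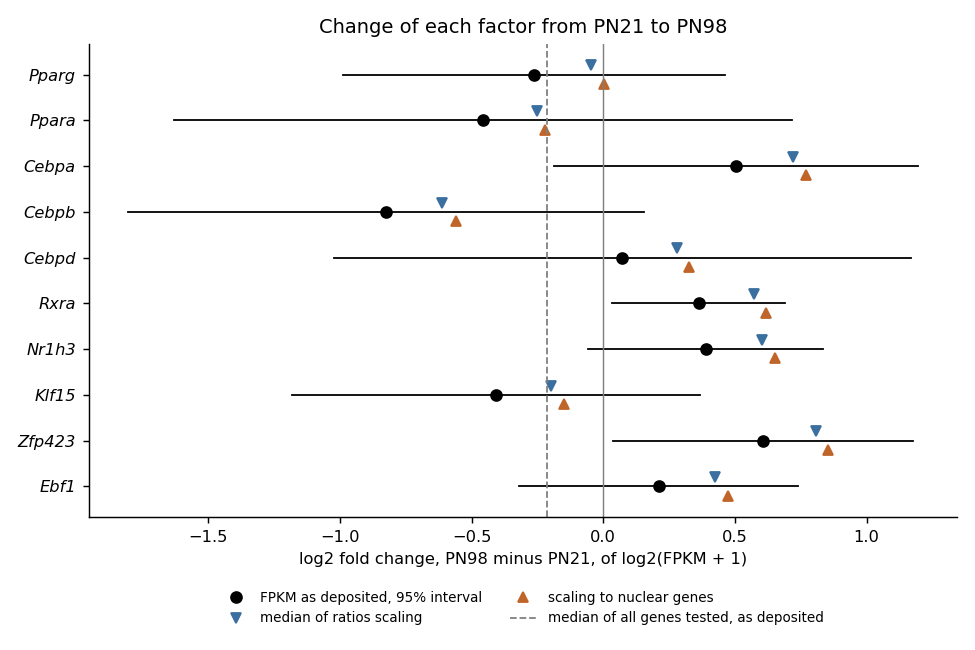
Log2 fold change (PN98 minus PN21, of log2(FPKM + 1)) of each factor with its 95% interval from the deposited FPKM (black), and the estimates after 2 scalings of the mice (triangles). The dashed line is the median of all genes, −0.21, and only the intervals of *Rxra* and *Zfp423* lay above 0.

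The order of the levels, which FPKM allows because it is per length, was similar at both ages at its top. At PN21 the means ran from *Cebpa* (207 FPKM) through *Pparg* (108), *Cebpb* (85.7), *Ebf1* (61.0), *Nr1h3* (54.4), *Klf15* (27.0), *Cebpd* (23.6), *Rxra* (20.6) and *Zfp423* (11) to *Ppara* (9.59). The lowest *Cebpa* mouse lay above the highest *Pparg* mouse at each age, and *Pparg* overlapped with *Cebpb* at both. At PN98 *Nr1h3* (70.7 FPKM) and *Ebf1* (52.7 to 84.9 FPKM) stood on average above *Cebpb* (50.8), with ranges that overlapped. These levels are summed over all transcripts of a gene, coding or not. Protein-coding transcripts alone gave 22.4 to 38.6 FPKM for *Ebf1* and 37.5 to 56.5 FPKM for *Nr1h3* at PN98. *Cebpb* was at 28.5 to 91.8 FPKM there, and on average neither of the other 2 genes then stood above it. The log2 spread between mice was wider at PN98 for 6 of the 10 factors. Its median over the 10 was 0.37 at PN21 and 0.50 at PN98, where all genes tested had 0.30 and 0.36.

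The genes around the factors were read from fixed lists. No gene passed among 10 tested family paralogs of the factors, 17 other transcription factors of adipogenesis or 16 coregulators. At an unadjusted p under 0.05 there were 0, 2 and 2 of them. The median log2 fold changes of these lists were −0.13, 0.00 and −0.16, close to that of all genes or above it. Among 17 inhibitors of adipogenesis 1 was called, lower at PN98, where 2.92% of all genes were called lower. The median of that list was −0.31, and 3 of its estimates were positive. The called gene was *Dlk1*, the preadipocyte factor that falls when precursors differentiate. *Dlk1* measured 14.9, 25.4, 7.61 and 12.7 FPKM at PN21 and 1.09, 0.807, 1.67 and 0.532 FPKM at PN98. Its log2 fold change was −2.91 ± 0.34 (adjusted p = 0.00555).

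Several known target genes of PPARγ and C/EBPα rose. Of the 23 targets tested, 6 were higher at PN98 and 0 lower, where 2.34% of all genes were called higher and 2.92% lower. The list had a median log2 fold change of 0.87, and 19 of the 23 estimates were positive. Under either scaling 10 of the 23 were higher, and with a pseudocount of 0.1 there were 4. The called genes included *Cidec* and *Plin4*, which coat the lipid droplet, *Adipoq*, which encodes adiponectin, *Cd36*, a fatty acid transporter, and *Lipe*, the hormone-sensitive lipase. *Cidec* measured 566, 462, 364 and 427 FPKM at PN21 and 2008, 2443, 1613 and 2053 FPKM at PN98 (log2 fold change 2.16 ± 0.19, adjusted p = 0.00214). *Plin4* had a log2 fold change of 2.13 ± 0.19 (adjusted p = 0.00221) and *Adipoq* of 1.45 ± 0.21 (adjusted p = 0.0111). The rises of *Cd36* and *Lipe* were 1.11 ± 0.20 and 0.99 ± 0.22 on the log2 scale (adjusted p = 0.0211 and 0.0423). All 6 lay above every PN21 mouse in every PN98 mouse, m35 and m114 with the least *Pparg* included. These 6 genes were picked by a test on the same mice, so their separation is no further evidence of a rise. Whether the levels of the targets depend on that of *Pparg* was not tested. *Adipoq* was at 2696 and 3653 FPKM in m35 and m114 and at 2512 and 2769 FPKM in m106 and m125, and at most 1279 FPKM at PN21.

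Targets of the other receptors were read in the same way. Of 21 PPARα targets 2 were higher, among them *Vnn1*, a pantetheinase (log2 fold change 2.59 ± 0.42, adjusted p = 0.0158). The median of that list was 0.02. Of 11 targets of the liver X receptors *Pltp*, the phospholipid transfer protein, was higher (2.11 ± 0.41, adjusted p = 0.0283). *Scd1*, the stearoyl-CoA desaturase, was called lower, but it was listed at 0 in all 4 PN98 mice after 976 to 2935 FPKM at PN21, so no fold is given. The lists were chosen with earlier results known, and these counts were not tested as sets.

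**Figure D5:**
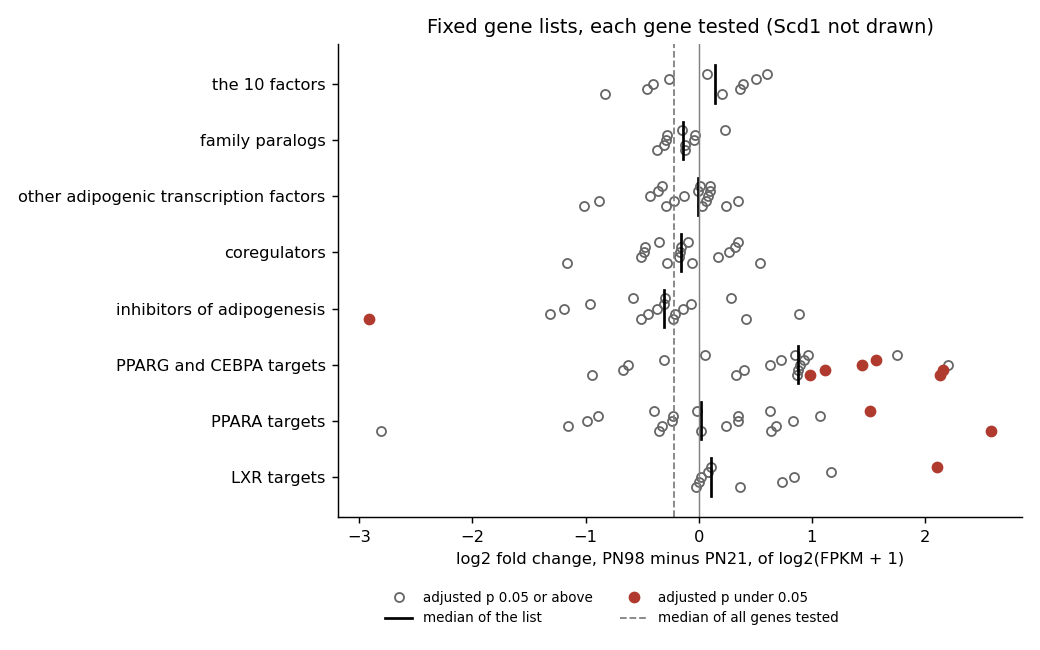
Log2 fold change (PN98 minus PN21) of each gene tested in the fixed lists except *Scd1*, filled where the adjusted p was under 0.05. The median of each list is a black bar. *Scd1*, called lower among the liver X receptor targets, is not drawn because no fold is given. The 10 factors held no filled point, and the targets of PPARγ and C/EBPα held 6, all to the right of 0.

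The makeup of the tissue differed between the libraries beside these results. The 10 adipocyte markers, all of which are also in the list of PPARγ and C/EBPα targets, summed to 15703 to 31532 FPKM at PN21 and 39214 to 59400 FPKM at PN98, and 4 of 10 were higher at PN98. The 12 muscle markers tested had 4 higher at PN98 (8 with median of ratios scaling, 6 with nuclear scaling and 1 with a pseudocount of 0.1), and their sum was 97.0 to 948 FPKM at PN21 and 726 to 4846 FPKM at PN98. Over all genes tested, 2.34% were called higher and 2.92% lower. All 5 erythroid markers were lower (4 with median of ratios scaling). Of 10 progenitor markers *Dlk1* alone was called, and the list summed to 276 to 476 FPKM at PN21 and 190 to 423 FPKM at PN98. Of 4 epithelial markers 1 was lower (0 with a pseudocount of 0.1). It was *Epcam*, at 1.19 to 2.62 FPKM at PN21 and 0.0421 to 0.964 FPKM at PN98. Of 4 Schwann cell markers 2 were lower (1 with nuclear scaling and 1 with a pseudocount of 0.1). No lymphocyte, macrophage, endothelial or brown marker passed. Transcripts of the mitochondrial genome took 50.7 to 59.8% of all FPKM at PN21 and 42.2 to 51.6% at PN98. The part of these shifts in the levels of the factors was not tested.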

How the data were processed

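Poly(A)+ RNA of inguinal fat was sequenced (paired ends of 100 bases, strand-specific kit), and the authors mapped the reads on mm10 with STAR 2.3.0 and estimated FPKM per transcript with Cufflinks 2.1.1. They deposited FPKM and no counts, so depth and its counting error are unknown. The deposited FPKM table had lost the decimal mark in 40426 of 91969 transcripts. The marks were restored from the table's own SD, average and score columns. A sole reading was left for 40379 transcripts, 5007 of which were also in a second deposited table and equalled it in all 8 mice, and 25 transcripts were left out. The second table also holds the authors' own contrast (fold changes and p-values), which was not used. The score and other summary values in the deposited files served only for the restoration.

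Transcripts were assigned to genes with GENCODE vM21 (GRCm38, the build of the files), so rows that list a member's symbol beside an overlapping gene were left out (8 of 15 *Nr1h3* rows, for example, were kept). Gene sums with a mean of at least 1 FPKM were tested on log2(FPKM + 1) with limma 3.58.1 in R 4.3.3, and transcripts above 0 in all mice with a mean above 2 FPKM at an age on log2(FPKM), the filter of the study. P-values were adjusted over all features tested by the Benjamini-Hochberg procedure. Ratios and the isoform share were tested by exact permutation. Both fits were tested on simulated data. The labels give each mouse a separate number and nothing on litters, so p-values measure the spread between these mice. Named were all 10 factors, their transcripts with the lowest p or the highest mean, and at most 6 called genes of each list. Some called genes of the lists are counted but not reported here by name. Genes with a pattern like a called factor were to be named, and no factor was called. *Lep*, the brown markers and the sex-linked genes were chosen after their values were seen. The members and lists were chosen with earlier results of these data known. Alternatives were the scaling, pseudocount, filter, sample weights, a trended prior and leaving out each mouse.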

Additional observations from a re-analysis of the deposited data

Results flagged for a closer look

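Only 3 values stood apart from the other 3 mice of their age, out of 30 groups of 4 values checked by Dixon's criterion, under which chance gives about 1 in 20. *Pparg* was at 133 FPKM in PN21 mouse m49, with the other PN21 mice at 97.5 to 101 FPKM. The log2 ratio of *Pparg* to *Rxra* was accordingly 2.74 in m49 and 2.13 to 2.22 in the others. *Zfp423* was at 16.4 FPKM in PN21 mouse m1, with the others at 9.09 to 9.52 FPKM.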

How the results depend on the processing

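No factor passed at the gene level under 14 of 15 alternatives, and 1 passed with sample weights, where *Rxra* had a log2 fold change of 0.37 (adjusted p = 0.0401). Those weights ran from 0.347 in m35 to 3.54 in m106, and the fit called 1149 genes higher and 3497 lower. The count of called member transcripts was 0 except with sample weights and without m145, where it was 1, the *Klf15* transcript ENSMUST00000113530 both times, and it ran from 0 to 1 over the mice left out. The median of the 10 log2 fold changes was 0.40 with nuclear scaling, 0.35 with median of ratios scaling and −0.04 to 0.26 with a mouse left out. Both scalings moved the 10 estimates up together. *Pparg* changed sign with nuclear scaling (0.0027) and *Ppara* with sample weights (0.053). *Cebpd* ran from −0.32 to 0.45 with a mouse left out and was negative without m49, m138, m35 or m125. The other 7 factors kept their sign under all 15 alternatives. The *Cebpa* to *Cebpb* ratio ran from 1.14 to 1.54 with a mouse left out (exact permutation, adjusted p 0.0571 to 0.229), and no ratio passed under any alternative after adjustment over 4. With so few splits, a ratio alone at the smallest p could not pass that adjustment. Called genes of the 7 fixed lists numbered 11, with 17 under either scaling and 9 with a pseudocount of 0.1. With a mouse left out they ran from 5 (without m106) to 20 (without m35), and were 6 without m1 and 7 without m49, m138, m145 or m114. The causes of these shifts were not tested. FPKM without counts gives no depth, and with 4 mice an age the 95% intervals of *Pparg*, *Ppara*, *Cebpb*, *Cebpd* and *Klf15* each span over 1.4 log2 units. No paired analysis was possible because the mice of the 2 ages share no numbers in the labels.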
